A study of Ovis aries with 16 samples.

Results

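Liver and thigh muscle were compared within 4 female Suffolk sheep whose mothers had received only corn oil during pregnancy. The members are 8 of the 16 small RNA libraries of the series, chosen by their labels alone: the liver and the muscle library of each control animal, numbered 902, 908, 924 and 928. Because each number marks 1 animal, every muscle library was set against the liver library of the same sheep. The other 8 libraries come from 4 animals whose mothers had received bisphenol A (BPA), a monomer of plastics that can bind oestrogen receptors, dissolved in corn oil, and serve here only to show whether a tissue difference recurs in other sheep. Mothers were injected under the skin every day from day 30 to day 90 of gestation, with oil for the controls and with 0.5 mg BPA per kg for the exposed group. Tissue of all offspring was taken at an age of about 21 months in the late follicular phase. The animals had fasted for 48 hours, and the later of 2 prostaglandin injections, spaced by 11 days, had been given 24 hours before. The liver piece was the left lobe's tip, the muscle piece was vastus lateralis, and both were snap frozen. A liver sample holds hepatocytes with bile duct, vessel, stromal and immune cells, and a muscle sample holds fibres with the same kinds of supporting cells, so that fewer cells of a type and less RNA per cell cannot be told apart in any value below.

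A microRNA (miRNA) is a short RNA, cut from a hairpin, that guides the silencing of messenger RNAs matching its seed. Some miRNAs are made almost wholly in 1 lineage: miR-1, miR-133 and miR-206 are known as the miRNAs of striated muscle, and miR-122, miR-192 and miR-194 as those of hepatocytes or gut epithelium. Small nucleolar RNAs (snoRNAs) guide chemical modification of ribosomal and spliceosomal RNA and mostly lie in introns of other genes, small nuclear RNAs (snRNAs) form the core of the spliceosome, and long non-coding RNA (lncRNA) loci reach a small RNA library only as fragments or as smaller RNAs made from the locus. The tables name hairpin loci, not mature arms, so "MIR133" is the locus as listed.

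Reads assigned to the listed miRNAs numbered 94393 to 240815 in the 4 livers and 471691 to 559705 in the 4 muscles. The snoRNA table held 8000 to 10629 reads per liver and 2825 to 3872 per muscle, that of snRNAs held 29981 to 58486 and 1159 to 1612, and that of lncRNAs held 18344 to 45323 and 463009 to 579608. The labels' library codes ran from 73 to 76 for muscle. Liver 902 had code 65, and the other livers had adjoining codes above 100, so the muscle codes lay between those of the livers. The authors' values had been scaled separately in each tissue, and all levels given here are counts rescaled over the 8 libraries of a table. A difference is the log2 of muscle over liver, computed on value + 1, and it is relative to the median transcript of its class. Unless SD is named, the ± value after a difference is limma's standard error. Its variance is moderated over all tested transcripts of the table, so it is not the plain spread of the 4 pairs. Calls rest on limma with the animal as a block, at an adjusted p below 0.05. Liver 902 stood apart from the other livers in several transcripts described below.

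The tissue labels fit the marker miRNAs that the table holds. MIR133, a muscle miRNA transcribed under the control of myogenic factors, had rescaled counts of 429892, 454506, 482698 and 359399 in muscle 902, 908, 924 and 928, and of 578, 112, 92.7 and 126 in the livers of the same sheep. No liver came near any muscle, and liver 902 was the highest of the livers. The difference was 11.32 ± 0.33 (limma, adjusted p = 1.77e-12). The liver values rest on 205, 96, 77 and 49 reads. MIR194, a miRNA of hepatocytes and gut epithelium, had 6862, 6221, 8055 and 8633 in the livers and 238, 177, 167 and 151.9 in the muscles, a difference of -5.34 ± 0.20 (adjusted p = 1.86e-11). MIR148A, a hepatocyte-rich miRNA known to act on the LDL receptor, had 29516, 29725, 31564 and 41463 in the livers and 2069, 1867, 1528 and 2139 in the muscles, a difference of -4.12 ± 0.17 (adjusted p = 4.01e-11). The 4 livers lay above the 4 muscles for both. The other muscle and liver markers, among them MIR1, MIR206, MIR499, MIR122 and MIR192, were not analysed here.

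Among 76 tested miRNAs, 25 were higher in muscle (32.9%) and 29 were lower (38.2%). Of the 54 called, 52 had the same direction in all 4 animals and in 51 the tissues did not overlap. These traits were not particular to the called miRNAs. MIR29A, MIR26A and MIR485 were not called, had the same direction in all 4 animals and did not overlap either. The median difference over all tested miRNAs was 0.02, so the counts of both directions describe a spread around a common level. That level is set by the scaling. Dividing by all miRNA reads of a library instead, of which MIR133 holds most in muscle, moved the median by -1.47 and gave 7 higher and 54 lower, and on the authors' scale the median moved by -0.63 and 17 were higher and 39 lower.

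**Figure D1:**
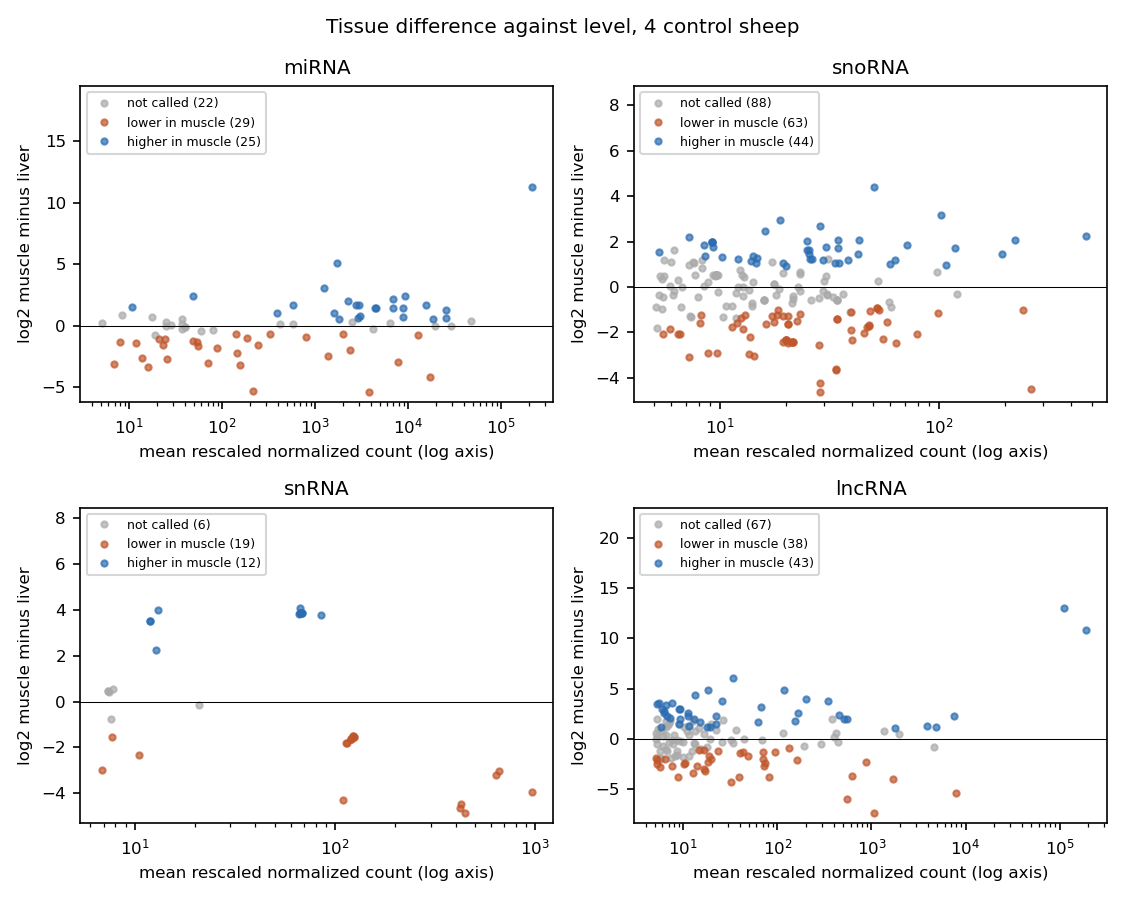
Difference between muscle and liver (log2, vertical axis) against the mean rescaled count over 8 libraries (horizontal log axis), 1 point per tested transcript, in the 4 RNA classes; colours give the limma call. In the miRNA panel MIR133 stands alone at 11.32, and in the lncRNA panel LOC105603743 and LOC105604459 stand at 13.02 and 10.84.

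Among miRNAs with a mean rescaled count of at least 50, those with the largest excess in muscle after MIR133 were MIR10B, MIR150, MIR125B and MIR22. MIR10B, which lies in the HOXD gene cluster, had 3508, 3089, 3151 and 3293 in muscle and 471, 79.7, 39.7 and 49.0 in liver (5.12 ± 0.41, adjusted p = 6.89e-08). The tissues did not overlap, and liver 902 again held the highest liver value. MIR150, a miRNA of mature lymphocytes, had 1750, 2517, 2620 and 1948 in muscle and 161, 435, 320 and 178 in liver (3.11 ± 0.20, adjusted p = 1.13e-08). It was the only leukocyte marker measured, and the part of leukocytes in its difference was not tested. MIR125B, a relative of the worm timing gene lin-4, had 15563, 17009, 16572 and 12731 in muscle and 1706, 3522, 3623 and 3160 in liver (2.42 ± 0.20, adjusted p = 1.01e-07). MIR22, abundant in heart and skeletal muscle, had 10273, 11305, 12106 and 11110 in muscle and 2196, 2196, 2624 and 3232 in liver (2.14 ± 0.17, adjusted p = 6.14e-08). For these 3 miRNAs each muscle exceeded every liver. The next 5 by size above that mean were MIRLET7D at 1.98, MIR106B at 1.74, MIR25 at 1.69, MIRLET7B at 1.69 and MIR30C at 1.69. MIR106B and MIR25 are made from a common transcript inside the gene of the replication protein MCM7. Scaled to all miRNA reads, MIR106B, MIR25, MIRLET7B and MIR30C were no longer called and lay between 0.21 and 0.27.

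Liver 902 was the highest liver for only some of the muscle-rich miRNAs. Expressed as a percentage of the muscle of the same sheep, liver MIR133 was 0.134% in sheep 902 and 0.0248%, 0.0192% and 0.0351% in 908, 924 and 928. Liver MIR10B was 13.4% of muscle in 902 and 2.58%, 1.26% and 1.49% in the others. Of the 25 miRNAs called higher in muscle, liver 902 was the highest liver for 5, which were MIR133, MIR10B, MIR23A, MIRLET7I and MIR362, and the lowest for 17. This split was looked at after the values had been seen. Without liver 902, in a fit that also dropped the pairing, 26 miRNAs were called higher and 30 lower.

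**Figure D2:**
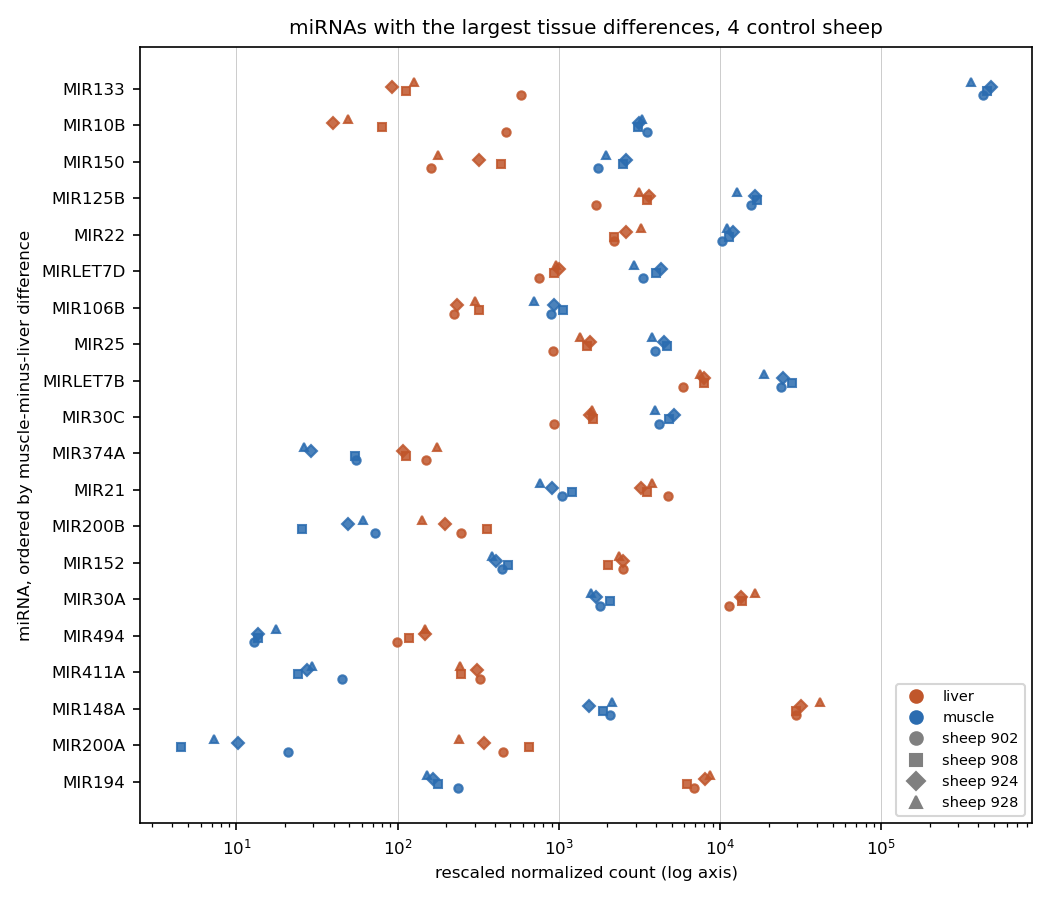
Rescaled count (log axis) of the 10 miRNAs with the largest excess in muscle and the 10 with the largest excess in liver, among called miRNAs with a mean of at least 50 and no overlap, 1 point per library, coloured by tissue with a symbol per sheep. Liver 902 is the rightmost liver point for MIR133 (578) and MIR10B (471).

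On the liver side, MIR200A had a difference close in size to that of MIR194, and MIR200B a smaller one. Both belong to a family known to hold cells in an epithelial state by silencing ZEB1 and ZEB2. MIR200A had 451, 651, 345 and 240 in liver and 20.9, 4.503, 10.2 and 7.30 in muscle (-5.27 ± 0.36, adjusted p = 1.82e-08), where the muscle values rest on 27 reads in all. MIR200B had 248, 359, 197 and 142 in liver and 72.4, 25.5, 49.3 and 61.3 in muscle (-2.17 ± 0.35, adjusted p = 6.90e-05). Every liver exceeded every muscle for both. The third member, MIR200C, had 73.3, 71.5, 24.1 and 10.3 in liver and overlapped muscle, with a 95% interval of the difference from -1.25 to 0.74. These miRNAs also mark bile duct epithelium, whose part in the difference was not tested.

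MIR30A had 11328, 13635, 13427 and 16501 in liver and 1795, 2077, 1701 and 1587 in muscle, a difference of -2.93 ± 0.18 (adjusted p = 4.59e-09). MIR152, which shares its seed with MIR148A, had 2492, 2007, 2513 and 2374 in liver and 443, 480, 408 and 387 in muscle (-2.45 ± 0.18, adjusted p = 4.07e-08). MIR21, a miRNA raised in proliferation and fibrosis, had 4725, 3498, 3222 and 3778 in liver and 1051, 1198, 904 and 759 in muscle (-1.96 ± 0.18, adjusted p = 3.09e-07). None of these 3 overlapped between tissues. MIR374A was lower by a log2 value of -1.76. MIR143 and MIR199A, which mark fibroblasts and smooth muscle, and MIR221 of endothelium were not called, with differences of 0.01, 0.20 and 0.16.

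Families differed in whether their members moved together. All 7 measured let-7 miRNAs, a family that rises as cells mature, were higher in muscle, against 32.9% higher over all tested miRNAs. They ranged from 0.55 for MIRLET7F to 1.98 for MIRLET7D, with a median of 1.28. That direction depends on the scale. With all miRNA reads as the base 1 member was higher and 3 were lower, with a median of -0.19, beside 7 higher and 54 lower of all 77 tested. On the authors' scale 4 members were higher and none lower, beside 17 higher and 39 lower of all 76. MIRLET7A, the most abundant of them in muscle, had 34130, 40527, 40074 and 30386 in muscle and 10533, 16916, 16473 and 16535 in liver. Every muscle exceeded every liver. Of 4 members of the group of miR-10, miR-99 and miR-125, MIR10B, MIR125B and MIR10A (1.02) were higher, and MIR99A was not called. With all miRNA reads as the base 2 of them were higher and 1 was lower. MIR181A-1 and MIR181A-2, whose mature product is the same and whose reads cannot be told apart, were higher by 1.43 and 1.45 and not called on the base of all reads. MIR23A (0.54) and MIR23B (0.67) were higher, and MIR27A was not called (0.33). On the base of all reads these 3 were lower.

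The miR-30 family went both ways on the common scale. MIR30C (1.69) and MIR30D (1.43) were higher in muscle, and MIR30A (-2.93) and MIR30B (-0.93) were lower. MIR30D had 14224, 13630, 12432 and 11342 in muscle and 3361, 5826, 4907 and 5466 in liver, the reverse of the order of MIR30A. The tissues did not overlap for either. On the base of all reads the 2 lower members stayed called lower and neither higher member was called. The miR-17 and miR-25 relatives also split, with MIR106B and MIR25 higher, MIR106A lower (-1.35, at a mean liver count of 11.8) and MIR17 not called (-0.30). MIR19B fell below the minimum mean. MIR16B was higher (1.06) and MIR107 lower (-0.63). On the base of all reads none of these miRNAs was called higher. MIR26B was lower (-0.74), while the more abundant MIR26A missed the threshold (0.38, adjusted p = 0.0545). MIR26A was called higher in 7 other settings, TMM and DESeq2 among them, with adjusted p from 0.0108 to 0.0497. Its direction depends on the scale, since on the base of all reads it was called lower (-1.09, limma, adjusted p = 3.8e-05). The miR-29 miRNAs, known for acting on collagen messages, were not called: MIR29A differed by -0.24, and MIR29B-1 and MIR29B-2, which hold identical values, by -0.08 with a 95% interval from -0.67 to 0.52.

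**Figure D3:**
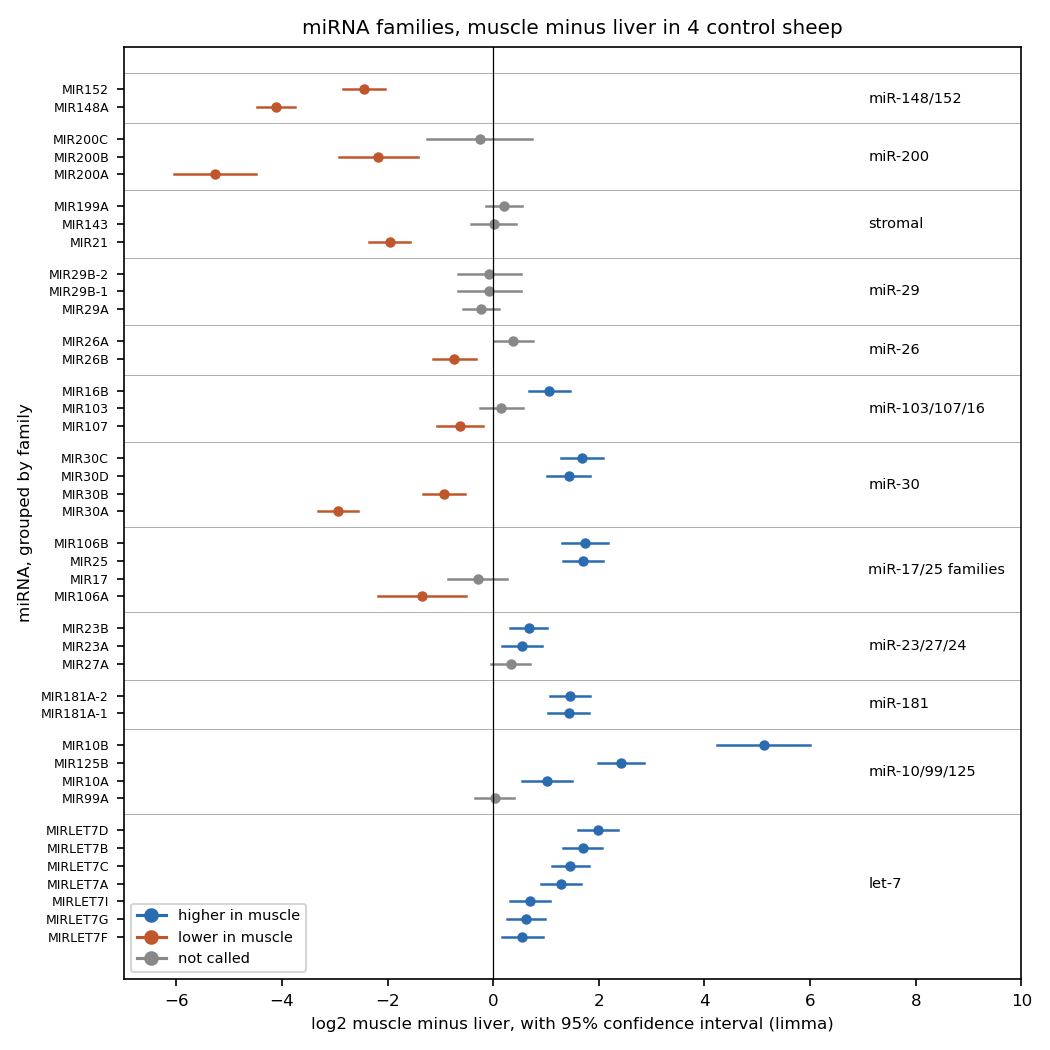
Difference between muscle and liver (log2, horizontal axis) of the tested members of 12 miRNA groups, with points for the limma estimate and bars for its 95% confidence interval; colours give the call. All 7 let-7 points lie right of 0, while the miR-30 group spans from -2.93 to 1.69.

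The most abundant miRNAs of the tissues overlapped in part. MIR133 took 54.8% ± 2.21 (SD, n = 4) of miRNA reads in muscle and 0.0829% ± 0.0896 in liver. The liver pool had no such leader: MIR26A took 14.8% ± 0.958, MIR148A 11.6% ± 1.14, MIR99A 10.2% ± 1.001, MIRLET7G 7.07% ± 0.390 and MIR143 6.96% ± 1.84. In muscle MIR26A took 6.94% ± 0.498, MIRLET7A 4.60% ± 0.219, MIRLET7G 3.94% ± 0.214 and MIR99A 3.76% ± 0.391. A share falls in muscle when MIR133 fills the pool, so MIR99A had a lower share there but a rescaled difference of 0.03, with a 95% interval from -0.34 to 0.40. MIR143 (0.01, interval -0.41 to 0.44) and MIR103 (0.15, interval -0.25 to 0.56) were, with MIR99A, the abundant miRNAs with the smallest differences. On the authors' scale these 3 were lower in muscle by -0.60, -0.61 and -0.47.

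The imprinted region between DLK1 and DIO3 holds the largest group of miRNAs in the table. Its miRNAs and snoRNAs are made from the maternal chromosome, and in sheep the region carries the callipyge mutation, known for overgrown hindquarter muscle. At the end near RTL1, 6 of 8 listed miRNAs were tested, and 3 were lower in muscle and none higher, against 38.2% lower over all tested miRNAs. MIR127, the most abundant there, had 1830, 2492, 2963 and 2711 in liver and 1792, 1492, 1599 and 1250 in muscle (-0.69 ± 0.20, adjusted p = 0.006). Muscle 902 came close to liver 902, and no muscle exceeded a liver. MIR136 was lower by -3.36, with 5 muscle reads in all, and MIR493 by -0.68. MIR433, MIR432 and MIR370 were not called, with 0.89, 0.52 and 0.18. With TMM factors 1 was higher, and on the base of all reads 5 were lower, where 54 of all 77 tested miRNAs were lower.

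In the MIR379 cluster of the same region, 20 of 45 listed miRNAs were tested, and 12 were lower in muscle, 1 was higher and 7 were not called, beside the same 38.2% lower and 32.9% higher over all. Their median was -1.17, against 0.02 over all tested miRNAs. Under the other scalings 12 to 17 were lower, but the calls over all miRNAs moved too. With TMM factors 12 of the cluster were lower, beside 29 of all 76 tested miRNAs. On the authors' scale it was 14, beside 39 of 76. On the base of all reads it was 17, beside 54 of 77. MIR411A had 324, 247, 311 and 242 in liver and 45.1, 24.0, 27.2 and 29.2 in muscle (-3.15 ± 0.24, adjusted p = 5.69e-08). MIR379 had 522, 286, 383 and 276 in liver and 127, 126, 118.95 and 121.19 in muscle (-1.51 ± 0.23, adjusted p = 3.76e-05). MIR494 had 98.7, 117, 148 and 147 in liver and 12.9, 13.5, 13.6 and 17.5 in muscle (-3.05 ± 0.27, adjusted p = 1.94e-07). Livers and muscles did not overlap for these 3. MIR154A was lower by -3.13, from 31 liver reads against 2 muscle reads. Its neighbour MIR154B was the exception with a value of 1.57, from 16 liver reads against 39 muscle reads, and liver 902 held none of the 16. MIR409 (-0.38), MIR382 (0.07), MIR485 (0.69), MIR543 (0.28), MIR412 (0.25), MIR329B (-0.03) and MIR299 (-0.75) were not called. The other 25 miRNAs of the cluster fell below the minimum mean. Of 32 snoRNAs between MIR370 and MIR379, 2 were tested and limma called neither, at -0.20 and 0.03. GTL2, the lncRNA also known as MEG3, gave 1 to 7 reads per library and was not called (-0.54, adjusted p = 0.4881).

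**Figure D4:**
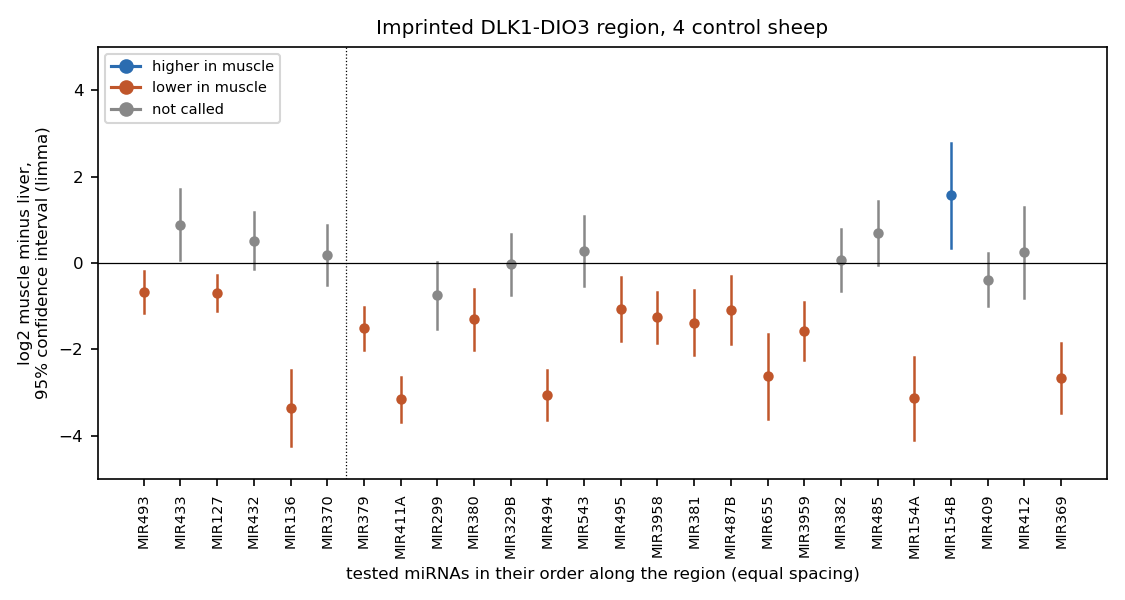
Difference between muscle and liver (log2, vertical axis) of 26 miRNAs tested in the imprinted region, in their order along the chromosome with equal spacing; points are limma estimates and bars 95% confidence intervals, and the dotted line separates the RTL1 end from the MIR379 cluster. Of the points, 15 are called lower and MIR154B alone is called higher.

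The RNA classes took different shares of the libraries, with fewer snRNA and snoRNA reads and more lncRNA reads per miRNA read in muscle. The snRNA reads per 100 miRNA reads were 41.2, 12.5, 26.2 and 37.1 in liver 902, 908, 924 and 928 and 0.336, 0.252, 0.249 and 0.246 in muscle, a mean log2 difference of -6.63 ± 0.70 (SD over 4 pairs). The snoRNA reads were 8.47, 4.41, 3.69 and 6.78 in liver and 0.636, 0.692, 0.587 and 0.599 in muscle (-3.14 ± 0.56). The lncRNA reads went the other way, with 19.4, 17.3, 20.3 and 22.2 in liver and 105, 104, 108 and 98.2 in muscle (2.39 ± 0.18). That excess rests on a pair of loci and not on the other loci of the class. LOC105604459 and LOC105603743 together took 93.1% ± 0.746 (SD, n = 4) of the lncRNA reads in muscle. In liver they took 0.526% and 0.167%. Tissues did not overlap in any of the 3 classes. A two-sided exact permutation over the 4 pairs gave p = 0.125 for each, the smallest value that 4 pairs allow, and 0.125 after adjustment over the 3. Without pairing the exact permutation p was 0.0286 for each, the smallest value that 4 against 4 libraries allow, and that test sets the design's pairing aside. In the 4 BPA-exposed sheep, livers gave 0.137 to 0.279 snRNA reads and 0.944 to 2.93 snoRNA reads per 100 miRNA reads, and muscles 0.180 to 0.756 and 1.30 to 2.67. The high snRNA share was therefore seen in the control livers and not in the exposed livers. The library codes of the exposed livers, 71, 72, 95 and 96, lay between that of liver 902 and those of the other control livers, and the part of library preparation in the share was not tested.

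Of 37 tested snRNA loci, 12 were higher in muscle (32.4%) and 19 lower (51.4%), and in all 31 the tissues did not overlap. That trait was not particular to the called loci. LOC114109142, LOC114109208, LOC114111401 and LOC114111403 were not called and did not overlap either. Only LOC114117038 and LOC114117049 overlapped. Many of the tested loci are copies whose counts are nearly the same. The 6 loci of 191 nt, which form 3 groups of distinct counts, and the 3 of 141 nt, which form 2, were higher in muscle. Of 15 loci of 164 nt, which form 10 groups, none was higher, and 10 loci in 7 groups were lower. The relation to length was not tested. LOC114117120, a 191-nt locus, had 76.3, 156, 94.9 and 171 in muscle and 26.3, 4.24, 3.77 and 2.50 in liver (4.09 ± 0.76, adjusted p = 0.0036). LOC114117117 and LOC114117115 held nearly the same values (3.86 each). Liver 902 was again the highest liver, below every muscle. LOC114115462, of 164 nt, had 1144, 1320, 2663 and 2075 in liver and 65.4, 156, 83.3 and 169 in muscle (-3.94 ± 0.40, adjusted p = 0.0018). LOC114117093, of 165 nt, had 739, 860, 1668 and 1350 in liver and 101, 192, 79.5 and 119.25 in muscle (-3.22 ± 0.43, adjusted p = 0.0018). LOC114115947, a 164-nt locus that overlaps ANKDD1B, was lower by -4.30. Each liver exceeded every muscle for these 3.

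The 37 snRNA loci made up 22 groups of distinct counts, of which 6 were higher and 13 lower. The word "higher" holds only within the class, since the class as a whole was far rarer in muscle: scaled by miRNA factors none was higher and 28 were lower (limma, with 28 at an unadjusted p below 0.05), with a median shift of -3.17. Scaled by all snRNA reads 23 were higher and 7 lower, DESeq2 gave 17 and 9, edgeR 16 and 8, and reads thinned to the shallowest library 13 and 7. Without sheep 928 the lower calls fell to 10.

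Of 195 tested snoRNAs, 44 were higher in muscle (22.6%) and 63 lower (32.3%). The tissues did not overlap for 86 of those called, and 99 had the same direction in 4 animals. Both counts are of called snoRNAs only, and a call favours both traits. LOC114111821, a 134-nt snoRNA inside DKC1, the gene of the pseudouridine synthase dyskerin, had 106, 84.6, 120.5 and 76.2 in muscle and 4.13, 2.59, 5.97 and 2.13 in liver (4.43 ± 0.33, limma). LOC114117367, inside RAB3GAP2, had 221, 193, 196 and 121.9 in muscle and 11.6, 24.0, 41.0 and 10.6 in liver (3.18 ± 0.37). LOC114113393, inside the translation factor gene EEF1B2, was higher by 2.71. The tissues did not overlap for any of these 3.

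LOC114114248, a 134-nt snoRNA inside the lncRNA locus LOC101110918, had 374, 852, 342 and 461 in liver and 20.4, 24.2, 19.8 and 17.1 in muscle (-4.48 ± 0.32). LOC114108878, a 67-nt snoRNA inside the ribosomal protein gene RPS3A, had 45.5, 48.7, 55.5 and 70.3 in liver and 0, 0, 1.98 and 7.62 in muscle, or 294 reads against 5 (-4.62 ± 0.48). LOC114110520, inside C23H18orf32, was lower by -4.22, from 298 reads against 4. The livers lay above the muscles throughout. By length, 24 of 101 tested snoRNAs of up to 100 nt were higher and 30 lower, and of 82 longer ones 17 were higher and 26 lower, so neither class went 1 way. Among the longer ones, all 8 loci of 105 nt, which have nearly the same counts, were lower. The authors' scale gave 20 higher and 95 lower with a median shift of -0.71, and miRNA factors gave 4 and 123 with a shift of -1.40.

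Of 148 tested lncRNA loci, 43 were higher in muscle (29.1%) and 38 lower (25.7%). Most muscle reads of the table fell on a pair of loci. LOC105604459, a locus that overlaps the ubiquitin ligase gene MIB1, had 384099, 361670, 409866 and 351658 in muscle and 417, 190, 151.8 and 144 in liver (10.84 ± 0.40, limma). The gene table places no smaller RNA gene inside LOC105604459, and the part of a smaller RNA, such as a miRNA, in its reads was not tested. LOC105603743, not found in the gene table and singled out here for its values, had 214833, 223465, 251612 and 207119 in muscle and 194, 40.2, 4.03 and 12.0 in liver (13.02 ± 0.89, adjusted p = 0.000258). Together they took 93.1% ± 0.746 (SD, n = 4) of lncRNA reads in muscle. Liver 902 was the highest liver for both, at 0.108% and 0.0904% of its own muscle against 0.0370% to 0.0526% and 0.00160% to 0.0180% in the other sheep. Sheep 902 was also the highest for MIR133, and the part of muscle RNA in liver 902 was not tested.

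On the liver side LOC114110111, also singled out for its values, took 31.1% ± 1.78 of lncRNA reads in liver and 0.0584% ± 0.0151 in muscle, with 10506, 17251, 20566 and 14010 in liver and 523, 313, 333 and 335 in muscle (-5.36 ± 0.38). LOC105607806, a locus that overlaps HES7 and contains a tRNA and an snRNA gene, had 885, 2114, 2390 and 2986 in liver and 16.8, 4.32, 6.59 and 23.3 in muscle (-7.38 ± 0.55, adjusted p = 0.0003). LOC101110918, the locus around the snoRNA LOC114114248, was lower by -5.94, and LOC114118468, which contains tRNA genes, by -3.95. No muscle reached any liver at these loci. LOC105606221, which overlaps the imprinted gene GNAS, was higher in muscle by 4.01, with 337, 387, 453 and 318 against 7.47, 26.4, 48.4 and 23.9 in liver. LOC114113790 was higher by 3.80 ± 1.08, with muscle values from 144 to 1869, and lost its call without sheep 924 or 928 (adjusted p = 0.0561 and 0.0902). LOC114117239, likewise singled out, gave no read in any liver and 53, 72, 51 and 46 in muscle. Against a floor of 3 reads per liver library it was at least 11.6-fold to 18.7-fold higher in the muscle of the same sheep.

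Of the loci found in the gene table, 31 contain a smaller RNA gene, and 7 of them were higher and 12 lower, where all tested loci gave 29.1% and 25.7%. Of 42 without such a gene 16 were higher and 10 lower. Among 12 loci with snoRNA genes as their only smaller RNAs, 7 were lower, none was higher and 5 were not called. Reads of a nested snoRNA and of its host locus cannot be told apart in these tables. The counts changed when a sheep was left out. Without sheep 908 the calls were 25 higher and 23 lower, and without 928 they were 27 and 24. Without 924 they were 39 and 25, and without 902 they were 43 and 46. Of the 81 loci called with all 4 sheep, 79 had the same direction in each animal, a trait that a call favours. Scaled to all lncRNA reads, 4 were higher and 172 lower with a median shift of -3.31, since the 2 leading loci then set the base.

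The same comparison in the 4 BPA-exposed sheep, whose libraries entered none of those calls, showed which tissue differences recurred. Of the 54 miRNAs called in controls, 53 were tested there and 50 (94.3%) had the same direction, with 39 called again. Of the 22 tested but not called in controls, 10 shared direction. MIR133 differed by 11.17 ± 0.43 (limma, adjusted p = 5.68e-07), MIR194 by -5.49 ± 0.27 and MIR148A by -4.10 ± 0.28 in exposed sheep. All 7 let-7 miRNAs, both MIR200A and MIR200B, and 11 of 12 tested called members of the MIR379 cluster kept their direction. The exceptions were MIR30B (-0.93 in controls, 0.87 in exposed sheep), MIR26B (-0.74 and 0.06) and MIR381 (-1.38 and 0.09). A direct test of the difference between exposed and control sheep called 0 of 75 miRNAs (0%; limma, 7 at an unadjusted p below 0.05). MIR30B came nearest at 1.82 ± 0.43 (adjusted p = 0.0846). The count was 6 without sheep 984, 1 without 908 and 2 without pairing.

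In the other classes, fewer of the called differences had the same direction in exposed sheep. Of the snoRNAs called in controls and tested in exposed sheep, 48 of 95 (50.5%) had the same direction. Of these snoRNAs 9 were called again, and 1 was called in the opposite direction. Of the snRNAs 6 of 28 (21.4%) had the same direction, with none called again. Of the lncRNA loci it was 52 of 68 (76.5%), with 29 called again and 2 called in the opposite direction. Of those tested in both but not called in controls, 37 of 74 snoRNAs, 4 of 6 snRNAs and 35 of 53 lncRNA loci shared direction. The difference between exposed and control sheep passed the test for 82 of 196 snoRNAs (41.8%), 34 of 41 snRNAs (82.9%) and 32 of 141 lncRNA loci (22.7%). Without sheep 928 the snRNA count was 21 and the lncRNA count 10, without 977 the lncRNA count was 15, and without pairing it was 56. Named transcripts were picked for large differences in controls, which alone favours smaller ones elsewhere. On the scale of that fit, the snRNA LOC114117120 changed from 4.76 in controls to -0.98 in exposed sheep, and the snoRNA LOC114114248 from -4.59 to 0.14. LOC114111821, the snoRNA inside DKC1, kept an excess in muscle of 3.18 against 4.34 in controls. LOC105607806 changed from -7.46 to -0.63 and LOC101110918 from -6.03 to -0.32, whereas LOC105603743 was at 12.93 and 11.75. The snRNA and snoRNA shares were high in control livers, and the part of those shares in the difference was not tested. Exposed livers held 710101 to 1712187 reads over the 4 tables, and control livers 159650 to 335387. The part of depth was not tested either.

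**Figure D5:**
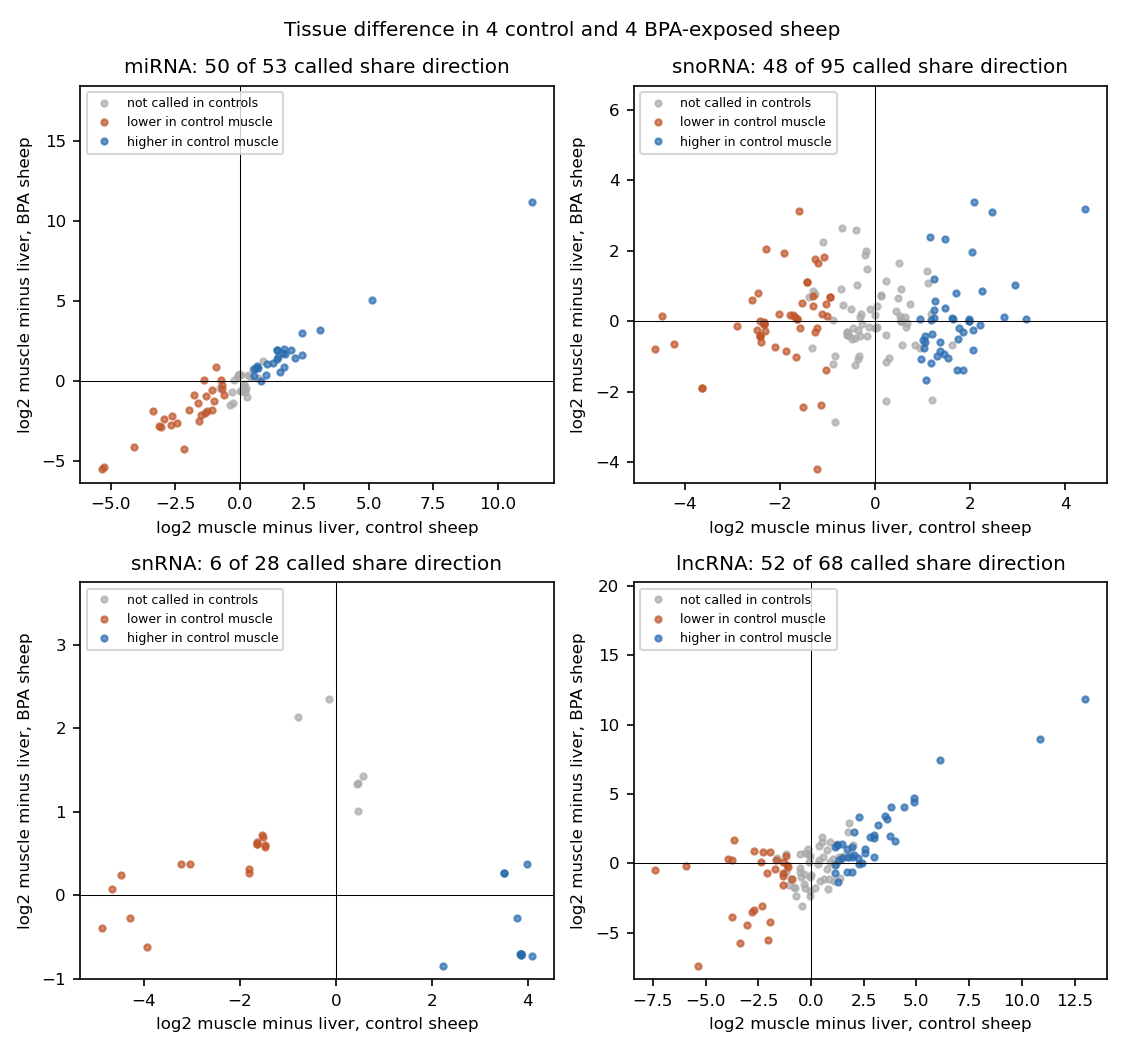
Difference between muscle and liver (log2) in the 4 control sheep (horizontal axis) and in the 4 BPA-exposed sheep (vertical axis), 1 point per transcript tested in both, coloured by the call in controls. Called miRNAs lie along the diagonal with 50 of 53 sharing direction, while called snoRNAs (48 of 95) and snRNAs (6 of 28) fall on both sides of 0.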

How the data were processed

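The authors deposited normalized count tables for 105 miRNAs, 694 snoRNAs, 1148 snRNAs and 2973 lncRNAs, a signal made by dividing read counts by size factors that the authors set per library within each tissue and table. Libraries were made with a NEBNext small RNA kit after Trizol and RNeasy extraction, per the labels' protocols. Tools used were cutadapt 3.2, STAR 2.6.0c and featureCounts 1.6.1, per the submitters' processing notes. Genome build, annotation and strand setting: not given in the sources used here. Within a library the deposited values were whole multiples of a common step (tolerance 0.001), which gave back the reads.

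The 8 control libraries were rescaled by median of ratios within each table (72, 186, 40 and 121 transcripts used). Transcripts with a mean of at least 5 were tested with limma 3.58.1 (R 4.3.3) on log2(value + 1), two-sided, with mean-variance trend, the animal as a block and Benjamini-Hochberg adjustment within a table. Adding 1 understates the change of low transcripts. Same-numbered libraries come from the same animal. Their deviations from the group means correlated by -0.07 to 0.09, and 1 of 4 livers was closest to its own muscle. The difference between exposed and control sheep was fitted over 16 libraries. Fits were tested on simulated data. DESeq2 1.42.0 and edgeR 4.0.16 on the recovered reads were alternatives. Copies were grouped where reads agreed within 10% or 2 reads.

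Named miRNAs are the 10 higher and 10 lower with the largest called difference, a mean of at least 50 and no overlap, the 5 most abundant per tissue, the 3 with the smallest difference, and list members. Other classes give the 3 higher and 3 lower with the largest difference, found in the RefSeq gene table of assembly ARS-UI_Ramb_v3.0, with a mean of at least 20. That table, used for names, lengths and overlaps, held 100% of tested miRNAs, 93.8% of snoRNAs, 75.7% of snRNAs and 49.3% of lncRNAs. The libraries follow from their labels, but the comparison, its gene lists and its tests were chosen with earlier results of these data known. The erythroid list had no member in the tables. Counting intervals are not given for shares of a class because PCR reads are not independent molecules.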

Additional observations from a re-analysis of the deposited data

Results flagged for a closer look

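In 13 of 100 groups of 4 libraries checked, 1 library lay far from the other 3, where chance gives about 5% for a single group. The groups reuse the same 8 libraries, and LOC114117120, LOC114117117 and LOC114117115 hold nearly the same counts. They are therefore not independent, and the 13 cannot be weighed against that 5%. Liver 902 stood apart from the other livers in 9: MIR133 (578.0), MIR10B (470.8), MIR30C (927.6), MIRLET7A (10530), MIR103 (425.7), LOC114117120 (26.35), LOC114117117 and LOC114117115 (26.07 each) and LOC105604459 (416.5). It was the highest liver for MIR133, MIR10B, LOC105604459 and the 3 snRNAs, and the lowest for MIR30C, MIRLET7A and MIR103. Muscle 928 stood apart for MIR494 (17.52), muscle 924 for MIR103 (696.7), and muscle 902 for LOC114110111 (523.4) and for snRNA reads per 100 miRNA reads (0.336).

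The tissue difference itself changed between exposed and control sheep for 82 snoRNAs, 34 snRNAs and 32 lncRNA loci, tested with limma as an interaction. Among named snoRNAs the change (exposed minus control, log2) was -1.16 for LOC114111821, -3.02 for LOC114117367, -2.47 for LOC114113393, 3.93 for LOC114108878, 4.73 for LOC114114248 and 3.68 for LOC114110520. Among snRNAs it was -5.74 for LOC114117120, -5.52 for LOC114117117, -5.51 for LOC114117115, 3.08 for LOC114115947, 2.31 for LOC114115462 and 2.58 for LOC114117093. Among lncRNA loci it was -2.43 for LOC105606221, 6.84 for LOC105607806, 5.71 for LOC101110918, 4.24 for LOC114118468 and -2.06 for LOC114110111. These transcripts were named for their large difference in the same control libraries, and that choice alone favours a change of the opposite sign.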

How the results depend on the processing

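Of 47 named transcripts, 32 kept direction and call under every setting run. Scaled to the total reads of the table, MIR26A (-1.09), MIR99A (-1.44), MIRLET7G (-0.84), MIR143 (-1.46), MIRLET7A (-0.19) and MIR103 (-1.32) turned negative, and on the deposited scale MIR99A (-0.60), MIR143 (-0.61) and MIR103 (-0.47) did. MIR133 holds most of the muscle total. The total gave 7 higher and 54 lower miRNAs, 23 and 7 snRNAs, and 4 and 172 lncRNAs. The deposited scale gave 20 higher and 95 lower snoRNAs. With miRNA factors for every table, 4 snoRNAs were higher and 123 lower, and 0 snRNAs were higher (limma, 28 in either direction at an unadjusted p below 0.05). A minimum mean of 20, which tests fewer transcripts, gave 27 and 40 snoRNAs, 20 and 20 lncRNAs, and 49 snoRNAs that differed between exposed and control sheep. Thinned reads, which also test fewer, gave 40 lower snoRNAs, 7 lower snRNAs, and 7 higher and 19 lower lncRNAs. DESeq2 gave 9 and edgeR 8 lower snRNAs, and the cause was not tested. Collapsed copies, an alternative chosen after seeing the data, gave 6 higher snRNAs, and loci with no smaller RNA inside gave 16 higher and 10 lower lncRNAs.

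Without the replicate block the class shares kept -3.14, -6.63 and 2.39 with an exact permutation p of 0.0286, and 2 miRNAs and 56 lncRNAs differed between exposed and control sheep in their tissue difference. Pairing changed no other count by over 1.5 times. Leaving out 1 sheep at a time, or liver 902 alone, gave 10 to 20 lower snRNAs, and 25 to 52 higher and 23 to 46 lower lncRNAs. The fit without liver 902 alone, which gave the 52, also dropped the pairing. For the difference between exposed and control sheep, leaving out 1 sheep gave 0 to 6 miRNAs, 21 to 35 snRNAs and 10 to 34 lncRNAs. Liver miRNA depth, snoRNA depth and muscle snRNA depth limit the tests of low transcripts. With 4 pairs an exact permutation cannot go below 0.125, and without pairing it cannot go below 0.0286.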
